A study of Mus musculus with 24 samples.

Results

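Neutrophils that received no stimulus are the baseline from which every treatment of the study starts, and their transcriptome is described here on its own. The 4 samples whose treatment label is untreated were taken, of 24 samples in the series, and only their own RPKM values were used. RPKM counts the reads of a gene per kilobase of its length, scaled to the mapped reads of the library, so levels of different genes can be ranked within a library. The cells came from C57Bl/6J mice, with no other allele named. During the 4 hours of culture no cytokine, growth factor, insulin or LPS was added to the medium, which itself held fetal calf serum. They were flushed from femurs and tibias, passed through a lysis of red cells and enriched on a Percoll layer, so they were enriched by density and not sorted by a surface marker. Each library was made from captured messenger RNA. The other 5 groups of the series (IL4, IGF1, insulin at 10 and at 100 ng/mL, and LPS with IFNγ) were not used.

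The libraries are called S74, S80, S86 and S92, as their titles give them. The file headers add a number to each (6, 9, 10 and 11). Whether such a number stands for 1 animal is not known, so the spread between libraries holds cell preparation, culture and library handling together. Mapped reads, recovered from the steps between low RPKM values, came to 21912630 in S74, 26619260 in S80, 25038259 in S86 and 23582133 in S92. At these depths 3 reads on a gene of 1 kilobase correspond to 0.113 to 0.137 RPKM. The files list 48709 genes, of which 18296 had a value above 0 in any of the 4 libraries. At least 0.1 RPKM was reached in all 4 libraries by 12023 genes, and at least 1 RPKM by 8709 genes. The libraries were alike over the 9194 genes with a mean of at least 1 RPKM, with Pearson's r of 0.971 to 0.984 between any pair on log2(RPKM + 0.1), a description across genes, which are not independent replicates.

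Neutrophils arise in the bone marrow through a fixed series of stages, and the proteins of their granules are made in that order. Promyelocytes make the azurophil granules with myeloperoxidase and serine proteases, myelocytes and metamyelocytes the specific granules with lactoferrin and cathelicidin, and band cells the gelatinase granules. Surface receptors for chemoattractants and for G-CSF come late, as the cells become ready to leave for the blood. Messenger RNA for granule proteins therefore serves as a record of stage.

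The neutrophil label held in these libraries. S100a9 and S100a8 encode the 2 chains of calprotectin, the calcium- and zinc-binding protein that fills the neutrophil cytosol, and they were the first and second gene of the transcriptome in every library. S100a9 (ENSMUSG00000056071.12, GRCm38 chromosome 3, 90692632 to 90695721, minus strand) had 54803 RPKM in S74, 49060 in S80, 51714 in S86 and 52467 in S92. S100a8 (ENSMUSG00000056054.9, chromosome 3, 90668978 to 90670035, plus strand) had 26521, 22976, 24192 and 24369 RPKM in the same order. The 2 genes lie side by side in opposite orientation, and the ratio of S100a9 to S100a8 was 2.12 ± 0.0386 (SD, n = 4). Together they made up 22.1% ± 1.04 (SD, n = 4) of the summed RPKM.

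Most other identity markers followed at high levels. Ngp, neutrophilic granule protein (chromosome 9, 110419747 to 110423012), had 16445, 13737, 13638 and 15128 RPKM in S74, S80, S86 and S92. Retnlg, a resistin-like protein of neutrophils (chromosome 16, 48872621 to 48874496), had 10092, 9872, 8870 and 8316 RPKM. Camp, the cathelicidin precursor, averaged 2487 ± 146.2 RPKM and Csf3r, the G-CSF receptor, 364 ± 25.1 RPKM (SD, n = 4 each). The highest value of each of these 6 markers was at most 1.21 times the lowest. Of the 10 genes of the identity list, 8 averaged above 100 RPKM, and the other 2, the promyelocyte genes Mpo and Elane, averaged 28.7 ± 15.6 and 26.2 ± 13.7 RPKM (SD, n = 4 each) and are described with the azurophil granules. Ly6g, the antigen most used to define mouse neutrophils, averaged 293 ± 39.5 RPKM, and Cxcr2, the receptor for neutrophil-attracting chemokines, 416 ± 12.2 RPKM (SD, n = 4 each). The integrin chain Itgam, which encodes CD11b, appears as a pair of features in the files. The feature Itgam_1, whose reads came out whole at 5024 bases, the annotated exon length of Itgam, had 774, 736, 720 and 748 RPKM.

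The start regions of the 6 most abundant genes are shown because these genes set the composition of the transcriptome. The sequences are those of RefSeq on GRCm38.p6, each from 250 bases before to 50 bases after the start of the gene, read 5′ to 3′ on the strand of the gene. Capitals mark the letters TTGCNNAA on either strand, a form of the site that C/EBP factors, the family that drives granule genes, are known to bind.
S100a9 (chr3:90695672-90695971, minus strand): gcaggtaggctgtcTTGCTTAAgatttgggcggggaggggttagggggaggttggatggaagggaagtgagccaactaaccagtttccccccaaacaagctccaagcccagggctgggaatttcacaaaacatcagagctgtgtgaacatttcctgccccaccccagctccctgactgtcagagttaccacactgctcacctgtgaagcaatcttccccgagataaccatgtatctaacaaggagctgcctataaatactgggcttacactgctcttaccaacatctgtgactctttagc
S100a8 (chr3:90668821-90669120, plus strand): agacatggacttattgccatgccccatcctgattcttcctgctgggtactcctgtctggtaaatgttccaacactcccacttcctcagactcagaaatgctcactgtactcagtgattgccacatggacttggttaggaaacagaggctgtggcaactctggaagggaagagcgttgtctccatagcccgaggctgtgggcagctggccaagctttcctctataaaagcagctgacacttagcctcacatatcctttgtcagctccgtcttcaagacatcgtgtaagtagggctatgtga
Ngp (chr9:110419558-110419857, plus strand): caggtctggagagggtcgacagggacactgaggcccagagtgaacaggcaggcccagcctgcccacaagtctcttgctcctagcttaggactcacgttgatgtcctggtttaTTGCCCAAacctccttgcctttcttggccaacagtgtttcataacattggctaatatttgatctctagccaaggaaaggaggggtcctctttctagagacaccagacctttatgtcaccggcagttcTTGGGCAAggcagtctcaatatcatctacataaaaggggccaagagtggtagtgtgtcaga
Lyz2 (chr10:117282223-117282522, minus strand): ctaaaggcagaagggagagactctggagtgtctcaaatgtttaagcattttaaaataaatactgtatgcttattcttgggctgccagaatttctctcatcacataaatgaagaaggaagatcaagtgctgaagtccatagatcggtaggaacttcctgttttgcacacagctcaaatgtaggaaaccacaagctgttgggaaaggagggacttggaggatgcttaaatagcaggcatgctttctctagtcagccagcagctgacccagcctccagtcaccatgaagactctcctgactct
Retnlg (chr16:48872358-48872657, plus strand): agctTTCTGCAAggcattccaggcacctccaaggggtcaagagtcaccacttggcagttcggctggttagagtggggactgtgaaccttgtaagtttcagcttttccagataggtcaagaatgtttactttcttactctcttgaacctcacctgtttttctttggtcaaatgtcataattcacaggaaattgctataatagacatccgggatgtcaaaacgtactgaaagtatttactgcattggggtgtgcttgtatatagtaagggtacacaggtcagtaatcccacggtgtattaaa
Ltf (chr9:111019042-111019341, plus strand): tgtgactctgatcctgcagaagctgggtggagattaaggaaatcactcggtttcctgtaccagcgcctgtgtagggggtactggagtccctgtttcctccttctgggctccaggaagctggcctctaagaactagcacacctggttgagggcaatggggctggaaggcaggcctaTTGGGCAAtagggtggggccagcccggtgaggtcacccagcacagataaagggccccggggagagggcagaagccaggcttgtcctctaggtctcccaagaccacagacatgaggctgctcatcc
The Ngp window held 2 matches, the S100a9, Retnlg and Ltf windows 1 each and the S100a8 and Lyz2 windows 0. The windows of Chil3 and Camp, also among the 10 most abundant genes, held 0. Among all promoter windows of this table, 10.8% of 32851 held a match, and by gene 12.2% of 27025 did. Of the 100 genes with the highest mean RPKM, 69 had a window under the same symbol, and 16 of these held a match. S100a8 had the letters TATAAA at position -30, S100a9 at position 0 and Chil3 at position -3. Positions are counted from the RefSeq start, which for S100a8 lies downstream of the gene start given above. Of all windows 13.6% held TATAAA on either strand, as did 16 of the 69 windows of the most abundant genes. A match describes the letters of the window and does not show that a factor binds there.

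Messenger RNA was concentrated in few genes. S100a9 alone made up 15.0% of the summed mean RPKM, 3 genes reached 25% and 74 genes reached 50%, while 796 genes were needed for 75% and 2779 for 90%. The 10 most abundant genes were S100a9, S100a8, Ngp, Lyz2, Retnlg, Ltf, the ferritin heavy chain feature Fth1_2, S100a11, Chil3 and Camp, and they held 36.2% of the summed RPKM. Most of these genes are short, while Ltf has 3450 bases. Counted as reads, the 10 genes with the most reads held 12.6% of all reads on genes. A mean of at least 100 RPKM was reached by 369 genes and of at least 1000 RPKM by 26.

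**Figure D1:**
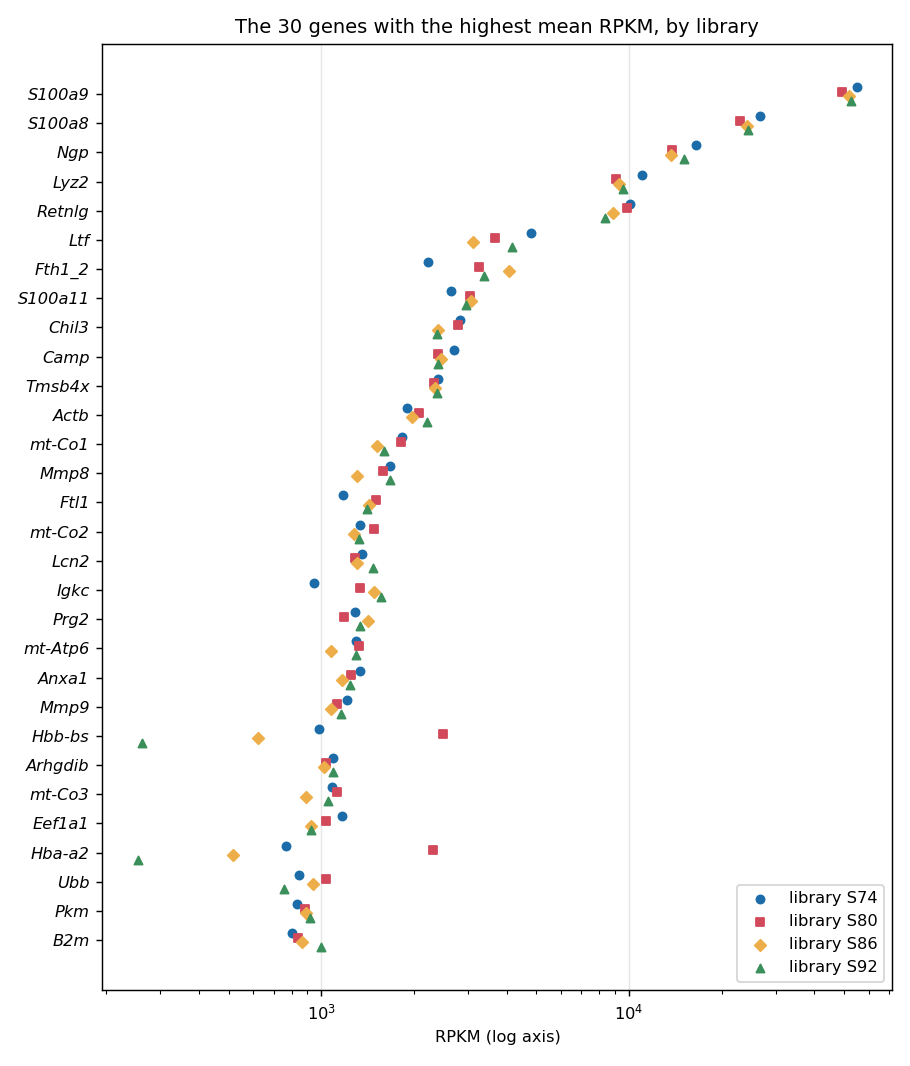
RPKM of the 30 genes with the highest mean in each of the 4 untreated libraries, on a log axis, with 1 symbol per library. The libraries lie close together for most genes, from 49060 to 54803 RPKM for S100a9, and far apart for the globins Hbb-bs and Hba-a2.

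The 30 most abundant genes fell into a few classes. They comprised 9 granule proteins, 3 S100 proteins, 4 genes of the mitochondrial genome and 5 genes of iron storage and the actin cytoskeleton. Lyz2, lysozyme, had 11037, 9092, 9275 and 9563 RPKM, and Ltf, the iron-binding lactoferrin, 4797, 3674, 3102 and 4159 RPKM. Fth1_2 had 2223, 3249, 4066 and 3379 RPKM, the reverse of Ltf in that S74 was its lowest and S86 its highest library. Tmsb4x, which binds actin monomers, averaged 2361 ± 34.9 RPKM and Actb 2034 ± 132.5 RPKM (SD, n = 4 each). Others of the 30 are known as genes of cells other than neutrophils, and the cells that held their messages here were not determined. They were the eosinophil granule protein Prg2 (1308 ± 98.9 RPKM) and the immunoglobulin light chain constant segment Igkc (1332 ± 274.1 RPKM). The globins Hbb-bs (1086 ± 974.4 RPKM) and Hba-a2 (961 ± 919.3 RPKM; SD, n = 4 each) were also among them. Remaining members were Ftl1, Arhgdib, Eef1a1, Ubb, Pkm and B2m.

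How firmly a level holds across the 4 libraries was tested gene by gene. The recovered reads of a gene were compared with the mapped reads of the libraries in a chi-square test with 3 degrees of freedom, and a gene is said to have varied when its Benjamini-Hochberg adjusted p was under 0.05 and its highest RPKM was at least 2 times its lowest. The test compares these libraries beyond counting error and says nothing about a condition. Of 9194 genes tested, 602 varied (6.55%), and 6004 (65.3%) differed beyond counting error when no minimum ratio was asked. The coefficient of variation over the 4 libraries had a median of 8.70% over these genes, with quartiles of 5.42% and 14.2%. With 1 library left out, where highest and lowest are taken over fewer values, the number was 395 without S80, 399 without S86, 403 without S74 and 523 without S92. The highest value lay in S80 for 268 of the 602 genes (2.91% of those tested), in S86 for 166 (1.81%), in S92 for 92 (1.0%) and in S74 for 76 (0.827%). Of the 30 most abundant genes, 2 varied, the globins Hbb-bs and Hba-a2.

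Granule proteins of 3 lists (azurophil, specific and gelatinase, 30 genes) together held 11.9% ± 0.895 of the summed RPKM (SD, n = 4), or 7.86% of the reads on genes. The specific granule list was the largest of the 3, with a sum of 31520 RPKM in S74, 26988 in S80, 25866 in S86 and 28596 in S92, and all 13 members were above 10 RPKM. After Ngp and Ltf its leading members were Chil3, a chitinase-like lectin (2597 ± 242.6 RPKM), Camp, Lcn2, which captures bacterial siderophores (1355 ± 85.6 RPKM), and Anxa1 (1248 ± 69.8 RPKM; SD, n = 4 each). None of the 13 varied between libraries by the criteria above (3-degree chi-square test with a 2-fold minimum), a count near what 6.55% would give, and 9 had their highest value in S74, the highest library for 20.6% of all genes (29.6% under median-of-ratios scaling). The gelatinase list as drawn up here included Mmp8, neutrophil collagenase, at 1559 ± 174.2 RPKM (SD, n = 4). Mmp8 also stands in the list of immature neutrophils below, and its placing among gelatinase granules was assumed and not tested. Mmp9, gelatinase B, averaged 1140 ± 56.9 RPKM, followed by Adam8 and Mmp25 at 126 ± 7.19 and 112 ± 3.76 RPKM (SD, n = 4 each). The lowest member of the gelatinase list was heparanase, Hpse, at 2.10 ± 0.325 RPKM (SD, n = 4).

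Azurophil granule genes were low, apart from Lyz2 and Cd63, which other granules and membranes share. Mpo, myeloperoxidase, had 43.5 RPKM in S74, 12.9 in S80, 40.7 in S86 and 17.8 in S92. Elane, neutrophil elastase, had 32.1, 12.8, 42.7 and 17.3 RPKM, and Ctsg, cathepsin G, 18.8, 5.40, 22.6 and 12.5 RPKM. Mpo, Elane, Ctsg and Prtn3, proteinase 3, all varied, and S74 and S86 were above S80 and S92 for each of the 4. Ms4a3 averaged 9.26 ± 2.57 RPKM and Prss57 1.79 ± 0.389 RPKM (SD, n = 4 each), and Bpi was listed at 0 in 3 libraries and at 0.0415 RPKM in S86. The summed RPKM of Ltf, Camp, Ngp, Lcn2 and Chil3 exceeded that of Mpo, Elane, Prtn3 and Ctsg 266 times in S74, 685 times in S80, 194 times in S86 and 493 times in S92. In bulk samples such as these, fewer cells of a stage and less RNA per cell cannot be told apart.

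Inhibitors that hold granule proteases in check were well represented. Stfa2l1 and Gm5483, of the stefin A cluster of cathepsin inhibitors, averaged 742 ± 88.7 and 320 ± 38.91 RPKM, Wfdc21 471 ± 60.7 RPKM and Slpi, secretory leukocyte protease inhibitor, 273 ± 24.2 RPKM (SD, n = 4 each). Members of the stefin A cluster are close to identical and may share reads, so their split is uncertain, and their sum over 6 genes was 1247 ± 140.5 RPKM (SD, n = 4). Serpina3n was listed at 0 in 3 libraries and at 0.0663 RPKM in S74.

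Lists of 4 stages were then laid side by side. The median member stood at 8.56 RPKM in the list of early precursors and promyelocytes (12 genes), at 17.9 RPKM among proliferating precursors (14 genes), at 1301 RPKM among genes of immature neutrophils (14 genes) and at 356 RPKM among genes of mature neutrophils (16 genes). On the scale of log2(RPKM + 0.1), the mean level of the mature list lay 1.69 ± 0.13 below that of the immature list (-1.75 in S74, -1.76 in S80, -1.50 in S86 and -1.76 in S92). The immature list exceeded the early precursor list by 6.79 ± 0.43 and the proliferating list by 6.07 ± 0.22 on the same scale (SD, n = 4 each). These are differences between lists of different genes, and how much of each gene a cell of a given stage holds is not known from these data.

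**Figure D2:**
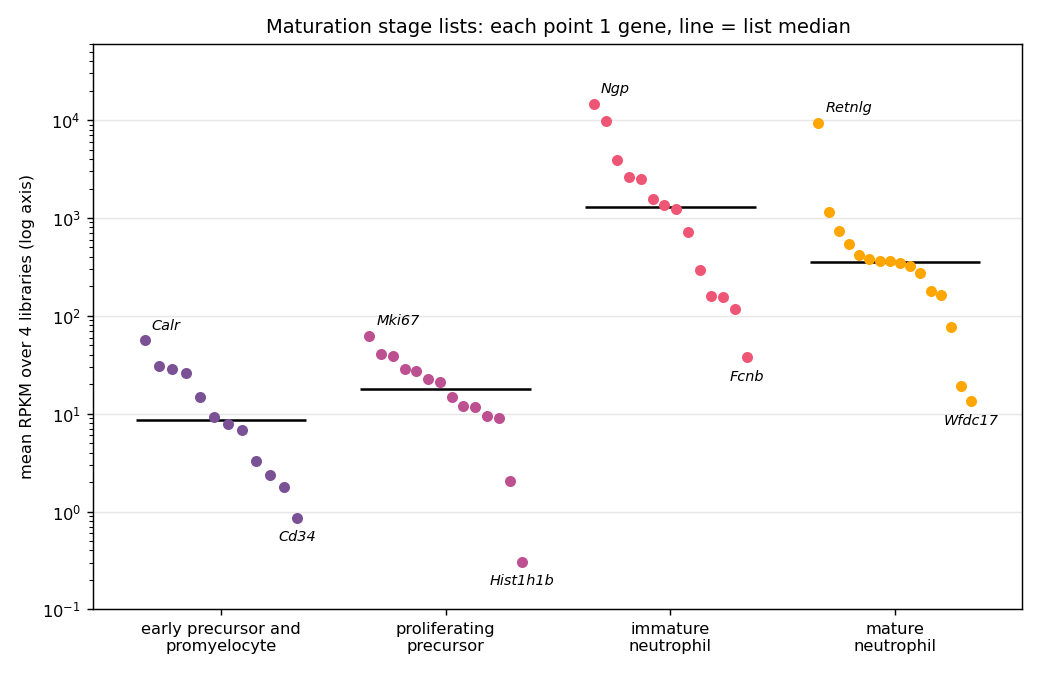
Mean RPKM over the 4 untreated libraries on a log axis, with 1 point per gene, in the lists of early precursors and promyelocytes, proliferating precursors, immature neutrophils and mature neutrophils, and a line at the median of each list. Most genes of the first pair of lists lie below most genes of the second pair, with medians of 8.56 and 17.9 RPKM against 1301 and 356 RPKM.

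The mature list was present throughout. Its members all had a mean above 10 RPKM and 13 of 16 a mean above 100 RPKM. After Retnlg and Mmp9 came Stfa2l1, Msrb1, a methionine sulfoxide reductase (549 ± 31.7 RPKM), Cxcr2 and the chemokine Ccl6 (379 ± 25.9 RPKM; SD, n = 4 each). Cd101, a surface marker of fully mature neutrophils, had 75.2, 71.7, 87.7 and 74.01 RPKM. Il1b and Wfdc17 were the 2 of 16 members that varied, where 6.55% of all genes did, with their highest values in S86 and in S74.

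The early precursor and proliferating lists were low but detected. Genes of dividing cells are not restricted to granulocyte precursors, and the part of other marrow precursors in these values was not tested. Myb, a transcription factor of dividing progenitors, had 33.9, 32.2, 26.1 and 29.4 RPKM, Kit, the stem cell factor receptor, averaged 3.26 ± 0.707 RPKM and Cd34 0.867 ± 0.134 RPKM (SD, n = 4 each). Top2a, the topoisomerase of dividing cells, had 37.9, 38.89, 45.6 and 34.4 RPKM, Rrm2 28.3, 28.8, 32.8 and 25.4 RPKM, and Stmn1 averaged 40.5 ± 5.06 RPKM (SD, n = 4). S86 was the highest library for 12 of 13 proliferating genes tested and for 9 of 11 early precursor genes, where it was the highest for 25.9% of all genes tested. Under median-of-ratios scaling of the libraries these counts were 13 and 9, against 28.3% of all genes. Of the 11 early precursor genes tested 5 varied, where 6.55% of all genes did, and 4 of these were highest in S86. Mki67, the proliferation antigen, was the only one of 13 proliferating genes tested that varied, where 6.55% of all genes did. It had 32.3, 71.4, 88.5 and 59.2 RPKM, and its lowest library, S74, was not the lowest for Top2a. Hist1h1b, a histone gene whose message largely lacks a poly-A tail, was at 0.306 ± 0.0705 RPKM (SD, n = 4).

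Transcription factors of the granulocyte lineage covered a wide range of levels. Cebpe, which the late stages of granulocyte development require, had 156, 160, 151 and 158 RPKM, and Spi1, which encodes PU.1, 141, 141, 145 and 137 RPKM. Klf6 and Klf2 averaged 145 ± 11.7 and 61.4 ± 5.36 RPKM (SD, n = 4 each). Cebpa, the factor of early granulocyte commitment, averaged 20.4 ± 0.716 RPKM, and Gfi1, a repressor of monocyte genes, 6.77 ± 0.976 RPKM (SD, n = 4 each). Of 24 tested members 2 varied, a share near the 6.55% of all genes: Cebpb, the C/EBP factor of emergency granulopoiesis, was highest in S86 with 9.40 RPKM (4.34 in S74, 5.10 in S80 and 5.53 in S92), and Myc was highest in S80.

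Among the genes by which neutrophils find and hold their targets, only leading members reached the levels of the lower identity markers Csf3r and Ly6g. The median member was under 100 RPKM in each of the lists of chemotactic receptors, adhesion molecules, and Fc and phagocytic receptors. It stood at 1451 RPKM in the identity list. The chemotactic receptors made up 0.521% ± 0.0251 of the summed RPKM (SD, n = 4), led by Cxcr2, the formyl peptide receptors Fpr1 (363 ± 49.2 RPKM) and Fpr2 (349 ± 29.997 RPKM) and Cxcr4, which holds neutrophils in the marrow (230 ± 13.3 RPKM; SD, n = 4 each). Cxcr1 was at 0.862 ± 0.364 RPKM (SD, n = 4). Among adhesion molecules Itgb2, the shared chain of the leukocyte integrins, averaged 523 ± 13.9 RPKM, Selplg, the P-selectin ligand, 194 ± 11.2 RPKM and Cd44 163 ± 5.70 RPKM (SD, n = 4 each), and the list as a whole differed least between libraries of the lists in this paragraph, with sums of 1591 to 1640 RPKM. Signalling adaptors of activating receptors were high, with Tyrobp, which encodes DAP12, at 825 ± 82.2 RPKM and Fcer1g, the common Fc receptor γ chain, at 352 ± 17.0 RPKM (SD, n = 4 each). Fcgr3 averaged 359 ± 25.1 RPKM and the C-type lectin Clec4d 389 ± 53.7 RPKM (SD, n = 4 each). The high-affinity receptor Fcgr1 (0.0532 ± 0.0399 RPKM), the scavenger receptor Msr1 (0.106 ± 0.0256 RPKM) and Mertk (0.0689 ± 0.0422 RPKM; SD, n = 4 each), all better known from macrophages, were at or under 0.134 RPKM in each library.

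The 6 subunits of the NADPH oxidase measured, the source of the oxidative burst, all averaged above 100 RPKM. Ncf1, p47phox, had 591, 533, 540 and 542 RPKM, Cybb, the catalytic gp91phox, 501, 390, 381 and 407 RPKM, and Rac2 averaged 376 ± 5.01 RPKM (SD, n = 4). Padi4, which citrullinates histones when neutrophil extracellular traps form, averaged 129 ± 6.33 RPKM (SD, n = 4). Glycolysis, on which neutrophils depend for energy, showed sums of 2427, 2459, 2409 and 2461 RPKM, the smallest ratio of highest to lowest sum of any list, and Pkm, pyruvate kinase, led it with 881 ± 35.7 RPKM (SD, n = 4). None of its 19 tested members varied by the same criteria, where 6.55% of all genes did. The 13 protein-coding genes of the mitochondrial genome held 2.28% ± 0.214 of the summed RPKM and 82 cytosolic ribosomal protein genes 2.43% ± 0.109 (SD, n = 4 each).

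Receptor chains for each agent used in the study were present before any agent was added. IL4 acts through the IL4 receptor α chain together with the common γ chain (type I receptor) or with the IL13 receptor α1 chain (type II receptor), and signals through JAK kinases to STAT6. Il4ra (chromosome 7, 125552120 to 125579474) had 13.02 RPKM in S74, 14.0 in S80, 12.7 in S86 and 13.1 in S92. Il2rg, the common γ chain, had 13.7, 18.5, 14.8 and 16.3 RPKM, and Il13ra1 5.86, 4.15, 5.77 and 5.13 RPKM. Partners of both receptor types were thus detected in each library, though whether they lay in the same cells was not tested. The decoy receptor Il13ra2 was listed at 0 in all 4, where 3 reads would give up to 0.0600 RPKM. Jak1 averaged 105 ± 4.81 RPKM, Jak2 33.2 ± 3.76 RPKM, Tyk2 6.58 ± 0.660 RPKM and Jak3, the kinase that pairs with the common γ chain, 0.489 ± 0.0809 RPKM (SD, n = 4 each). Stat6 had 73.7, 78.8, 79.3 and 72.2 RPKM, and the phosphatase Ptpn6, which dampens cytokine signalling, 233, 237, 247 and 246 RPKM. Of 10 tested members of the IL4 list, 1 varied, a share near that of all genes (6.55%): Socs1, a feedback inhibitor, with 1.61, 2.31, 1.67 and 0.834 RPKM.

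IGF1 and insulin bind a pair of related tyrosine kinase receptors that share adaptors of the IRS family. Igf1r (chromosome 7, 67952827 to 68233668) had 17.4, 17.2, 16.7 and 16.8 RPKM in S74, S80, S86 and S92, and Insr (chromosome 8, 3122061 to 3279617) 11.3, 9.94, 10.4 and 9.98 RPKM. Igf1r was above Insr in each of the 4 libraries, by 0.71 ± 0.08 on the log2(RPKM + 0.1) scale (SD, n = 4), and the ranges did not overlap. Igf2r, which carries IGF2 and mannose 6-phosphate proteins to lysosomes, had 13.1, 14.3, 14.1 and 12.4 RPKM. Of the adaptors Irs2 averaged 6.93 ± 1.34 RPKM and Irs1 0.191 ± 0.0690 RPKM (SD, n = 4 each), and Irs2 was above Irs1 in 4 of 4 libraries. Irs3 was under 0.1 RPKM in each library, and Irs4, the insulin receptor-related receptor Insrr, insulin itself (Ins2) and Igfbp3 were listed at 0 in all 4. Igf1 was at 0.0256 ± 0.0234 RPKM (SD, n = 4), a level that rests on few reads. Downstream of the receptors Grb2 averaged 88.2 ± 2.69 RPKM and Shc1 31.1 ± 2.01 RPKM (SD, n = 4 each). None of the 8 tested members of the list varied by the same criteria, a count near what 6.55% would give.

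The relays that these receptors use were expressed broadly. Of 24 genes of the PI3K and MAP kinase list, 20 had a mean of at least 10 RPKM. Mapk3, the kinase ERK1, had 93.7, 99.7, 98.0 and 95.2 RPKM, and Akt1 78.2, 75.3, 79.9 and 74.9 RPKM. Pik3cg, the PI3 kinase subunit that chemoattractant receptors use, averaged 79.99 ± 2.31 RPKM (SD, n = 4). Akt2 averaged 17.4 ± 1.47 RPKM (SD, n = 4). None of the 23 tested genes varied by the same criteria, where 6.55% of all genes did.

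LPS is recognised by Toll-like receptor 4 with its partner MD-2, helped by CD14 and the LPS-binding protein. Tlr4 had 7.84, 11.1, 10.9 and 10.9 RPKM and Ly96, which encodes MD-2, 7.82, 7.43, 8.41 and 8.51 RPKM. Cd14 had 18.3, 15.7, 50.6 and 15.8 RPKM, so that S86 stood alone above the others. Lbp averaged 16.4 ± 2.18 RPKM and the adaptor Myd88 42.6 ± 3.07 RPKM (SD, n = 4 each), while Ticam1 and Ticam2, adaptors of the other arm of TLR4 signalling, averaged 5.89 ± 0.570 and 1.68 ± 0.283 RPKM (SD, n = 4 each). All 23 members had a mean of at least 1 RPKM. Nfkbia, the inhibitor of NF-κB that is also its early target, led the list with 88.6, 99.4, 164 and 113 RPKM. Among the other Toll-like receptors Tlr13, the mouse sensor of bacterial ribosomal RNA, was highest at 110 ± 7.43 RPKM, followed by Tlr2 at 45.3 ± 13.1 RPKM, Tlr5 at 9.80 ± 0.955 RPKM and Tlr8 at 8.21 ± 0.939 RPKM (SD, n = 4 each), and Tlr3 and Tlr11 were under 0.1 RPKM in each library.

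IFNγ uses 2 receptor chains and the kinases JAK1 and JAK2. Ifngr2 had 43.0, 44.2, 48.9 and 46.7 RPKM and Ifngr1 39.0, 38.4, 40.7 and 35.7 RPKM. Irf1, a transcription factor that IFNγ induces, averaged 25.7 ± 1.13 RPKM (SD, n = 4). All 10 members of the list were above 1 RPKM, and Socs1 was the 1 of 10 that varied, where 6.55% of all genes did.

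Ordered by mean, the chains ran from Ifngr2 (45.7 RPKM) and Ifngr1 (38.4 RPKM) through Cd14 (25.1), Igf1r (17.0), Il2rg (15.8), Igf2r (13.5), Il4ra (13.2), Insr (10.4), Tlr4 (10.2) and Ly96 (8.04) to Il13ra1 (5.23 RPKM). Ranges of neighbours overlapped for Ifngr1 and Cd14, Cd14 and Igf1r, Igf1r and Il2rg, and Il2rg and Igf2r. They also overlapped for Igf2r and Il4ra, Insr and Tlr4, and Tlr4 and Ly96. Taken without pairing by library, the ranges of these neighbours were not separated. Without S86 the mean of Cd14 was 16.6 RPKM, below that of Igf1r (17.1 RPKM). The gaps between Ifngr2 and Ifngr1, between Il4ra and Insr and between Ly96 and Il13ra1 were free of overlap. An exact two-sided sign-flip permutation test, paired by library, was made for 8 pairs of chains. Among them were Igf1r with Insr, Il2rg with Il4ra, Tlr4 with Ly96 and Ifngr2 with Ifngr1. Each of the 8 pairs gave an exact permutation p of 0.13, also after adjustment over the 8. It is the smallest value that 4 libraries allow, and within each pair the same chain was higher in 4 of 4 libraries. Levels of messenger RNA were measured, and the number of receptors on a cell was not. The cells were enriched by density, and the part of other marrow cells in the receptor values was not tested.

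**Figure D3:**
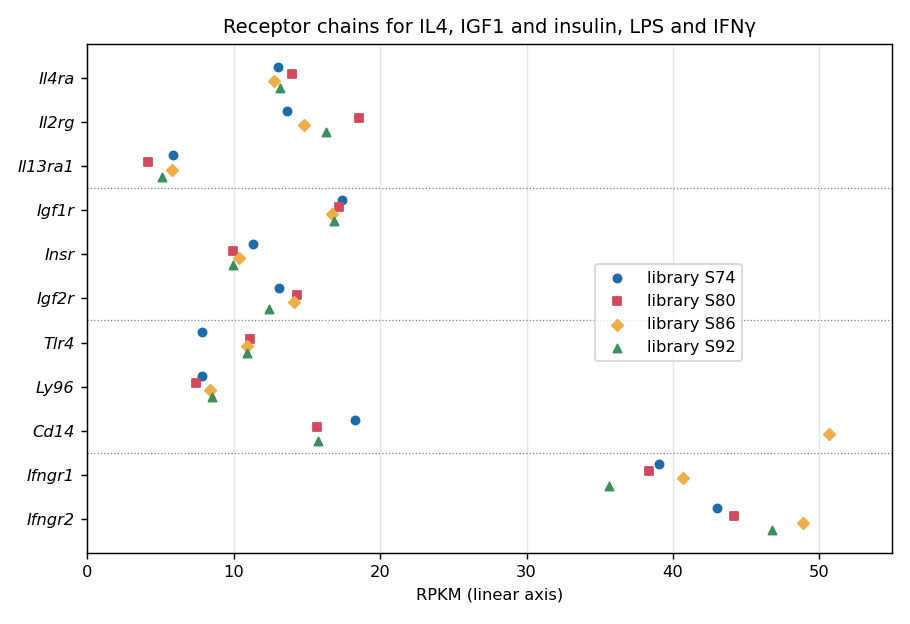
RPKM, on a linear axis, of receptor chains for IL4 (Il4ra, Il2rg, Il13ra1), for IGF1 and insulin (Igf1r, Insr, Igf2r), for LPS (Tlr4, Ly96, Cd14) and for IFNγ (Ifngr1, Ifngr2) in each of the 4 untreated libraries. Igf1r lies above Insr in each library, and Cd14 reaches 50.6 RPKM in S86 against 15.7 to 18.3 RPKM in the other libraries.

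Receptors for other cytokines gave the setting. Csf3r was highest, followed by the TNF receptor Tnfrsf1a (126 ± 3.80 RPKM), the GM-CSF receptor chain Csf2ra (83.8 ± 5.42 RPKM) and Il17ra (77.5 ± 2.47 RPKM; SD, n = 4 each). Il1r2, the decoy receptor for IL1, averaged 19.3 ± 2.05 RPKM and the signalling receptor Il1r1 0.187 ± 0.0259 RPKM (SD, n = 4 each). Of 18 tested members 1 varied, a share near the 6.55% of all genes. It was Tnfrsf1b, which was highest in S86 with 59.6 RPKM (27.6 in S74, 33.3 in S80 and 38.8 in S92).

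The genes by which the study reads N1 and N2 polarization, its pro- and anti-inflammatory states, started from very different levels. Chil3, an N2 marker, was among the 10 most abundant genes of untreated cells, with 2831, 2780, 2391 and 2384 RPKM. Tnf, an N1 marker, had 30.9, 35.9, 79.98 and 56.0 RPKM, and Il12a 3.17, 3.47, 2.39 and 1.70 RPKM. Tnf and Il12a varied, with S86 the highest library for Tnf and S92 the lowest for Il12a. Retnla had 0.153, 0.126, 0.200 and 0 RPKM. Arginase 1, Arg1, was listed at 0 in 3 libraries and at 0.0509 RPKM in S80, and Nos2, the inducible nitric oxide synthase, at 0 in S74 and S80, 0.0181 RPKM in S86 and 0.00961 RPKM in S92. Slc28a3, a nucleoside transporter, was under 0.1 RPKM in each library, Fam19a3 was listed at 0 in 3, and Car4 was listed at 0 in all 4, where 3 reads would give up to 0.0696 RPKM. Of the 9 readout genes, 5 were thus under 0.1 RPKM on average, so any later value for these starts from a baseline of few or no reads.

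Cytokine and chemokine genes leaned to S86. Of 17 tested, 8 varied, where 6.55% of all genes did, and 7 of the 8 were highest in S86. Il1b had 134, 122, 310 and 155 RPKM in S74, S80, S86 and S92, and the chemokine Ccl3 39.7, 70.7, 120 and 77.2 RPKM. Cxcl2, which attracts neutrophils themselves, had 9.45, 17.6, 55.8 and 25.3 RPKM, 5.90 times as much in its highest library as in its lowest. S86 was the highest library for each of these 3 and for Tnf, Ccl4, Csf1 and Cxcl10. In the LPS list S86 was the highest library for 11 of 23 tested members, where it was the highest for 25.9% of all genes. Of the 23, 2 varied, Cd14 and Tnfaip3, a share near the 6.55% of all genes. Genes of other lists with their highest value in S86, picked for that reason, were Cd14, Tnfaip3 (17.7 RPKM, against 8.10, 9.03 and 10.8 RPKM in S74, S80 and S92), Icam1 (12.8 RPKM, against 3.05, 4.23 and 6.63 RPKM), Ccrl2 (10.8 RPKM, against 2.44, 4.92 and 3.53 RPKM) and Clec4e (82.5 RPKM, against 40.2, 39.6 and 50.2 RPKM). For Il1b, Ccl3, Tnf and Cxcl2 the order of the other 3 libraries was not the same, and S74 was lowest for 3 of these 4. Il6 (0.290 ± 0.273 RPKM), Il10 (0.195 ± 0.176 RPKM) and Il12b, which was listed at 0 in 3 libraries, were near the limit of detection (SD, n = 4). The summed macrophage and monocyte markers were 296 RPKM in S74, 240 in S80, 314 in S86 and 289 in S92, and their part in the values of S86 was not tested.

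Type I interferon stimulated genes leaned to another library. S74 was the highest for 12 of 15 tested members, where it was the highest for 20.6% of all genes, and the count was again 12 of 15 under median-of-ratios scaling, against 29.6% of all genes. Ifit3 had 5.41, 1.46, 1.53 and 1.43 RPKM and Ifitm3 250, 164, 154 and 165 RPKM. The most abundant members, Ifitm6, Ifitm2, Ifitm3 and Ifitm1, did not vary by the criteria used, and they are similar in sequence and may share reads. Ifit3, Ifit1, Isg15 and Isg20 were the 4 of 15 that varied, where 6.55% of all genes did. Of these 3 were highest in S74 and 1, Isg20, in S80. Isg15 had 3.92, 3.38, 1.85 and 1.91 RPKM and Mx1 was at or under 0.1001 RPKM in each library. Wfdc17, from the list of mature neutrophils, showed the same high library with 29.1, 8.67, 9.82 and 5.97 RPKM.

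**Figure D4:**
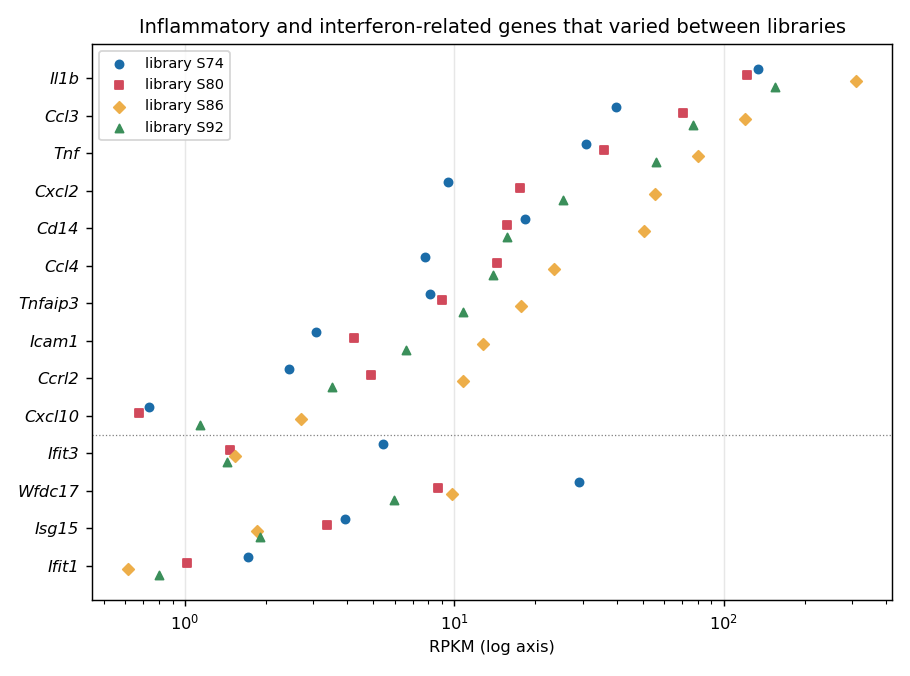
RPKM on a log axis of 10 inflammatory genes (above the dotted line) and 4 genes with their highest value in S74 (below it), all of which varied between the 4 untreated libraries. The genes were picked after their values were seen, so the split by library follows from the choice. S86 is the highest library for each gene above the line, as for Cxcl2 with 55.8 RPKM against 9.45 to 25.3 RPKM in the other libraries. Of the 8 cytokine and chemokine genes that varied, 1 was highest in S80 and is not drawn.

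Survival and death genes are of interest in cells that live only hours to days. Mcl1, the survival protein on which neutrophils depend, had 219, 249, 236 and 231 RPKM, while Bcl2 had 0.499 ± 0.136 RPKM and Bcl2l1, which encodes BCL-XL, 5.09 ± 1.04 RPKM (SD, n = 4 each). The death receptor Fas averaged 58.9 ± 15.6 RPKM and Birc3 31.7 ± 3.46 RPKM (SD, n = 4 each). Of 18 tested members 2 varied, where 6.55% of all genes did. These, Bcl2a1b and Bcl2a1d, belong to the near-identical A1 family, whose reads may be split between copies.

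Messenger RNA of genes known from other marrow cells was present in each library. Of 108 marker genes in 9 lists of other cells, 92 had a mean of at least 0.1 RPKM and 67 a mean of at least 1 RPKM. Of 21190 protein-coding genes, 10690 reached 0.1 RPKM in all 4 libraries and 8476 had a mean of at least 1 RPKM. Some markers, such as Ly6c2, Itgax and Itgb3, are not restricted to the cells of their list. Those counts alone therefore do not show that a cell type was present. The eosinophil list was abundant and close between libraries, with sums of 2152 RPKM in S74, 2116 in S80, 2380 in S86 and 2265 in S92. Prg2, major basic protein, had 1284, 1186, 1422 and 1340 RPKM, and the ribonucleases Ear1, Ear2 and Ear6 averaged 340 ± 15.7, 286 ± 14.4 and 138 ± 12.995 RPKM (SD, n = 4 each). Ear1 and Ear2 are close copies and may share reads. Eosinophil peroxidase, Epx, averaged 84.3 ± 5.86 RPKM, Siglecf 7.36 ± 0.413 RPKM and Il5ra, the receptor for the eosinophil growth factor IL5, 5.00 ± 0.462 RPKM (SD, n = 4 each). Of 9 eosinophil genes 1 varied, where 6.55% of all genes did. It was Ccr3, the eotaxin receptor, with 7.71, 15.5, 7.505 and 9.94 RPKM.

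Erythroid genes spread most. The 4 globin genes summed to 2263 RPKM in S74, 6063 in S80, 1432 in S86 and 644 in S92, and the order S80, S74, S86, S92 was held by Slc4a1, the anion exchanger of red cells (24.6, 34.3, 10.1 and 2.72 RPKM), and by Alas2, the first enzyme of heme synthesis (15.9, 33.2, 8.24 and 3.05 RPKM). Of 13 tested erythroid genes 11 varied, where 6.55% of all genes did, and S80 was the highest library for all 13, where it was the highest for 37.5% of all genes. Hba-a1 and Hba-a2, and likewise Hbb-bs and Hbb-bt, are near-identical and may share reads. The scavenger receptor Cd36, from the list of phagocytic receptors, followed the same order with 3.52, 5.32, 1.49 and 0.472 RPKM, and the part of red cell precursors in its value was not tested. Gata1, a factor of erythroid and several other marrow lineages, did not follow the order, with 1.83, 2.37, 1.56 and 1.81 RPKM.

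B lineage genes were at intermediate levels. Ighm, the heavy chain constant region of IgM, had 385, 465, 357 and 516 RPKM, and Cd79a and Cd79b, the signalling chains of the B-cell receptor, averaged 61.5 ± 26.9 and 57.4 ± 20.0 RPKM (SD, n = 4 each). Of 12 tested members 11 varied, where 6.55% of all genes did, and 10 of these were highest in S80, as were 268 of the 602 genes that varied. Rag1, part of the recombinase of developing lymphocytes, had 23.2, 27.0, 11.5 and 7.55 RPKM and Ms4a1, which encodes CD20 of more mature B cells, 3.25, 8.45, 2.84 and 8.07 RPKM, so S92 was the lowest library for Rag1 and the second highest for Ms4a1. Genes of MHC class II, which B cells and dendritic cells share, were highest in S80 as well, with Cd74 at 54.6, 158, 61.8 and 122 RPKM. Itgax and Bst2, which are not restricted to dendritic cells, averaged 4.02 ± 0.278 and 1.68 ± 0.475 RPKM (SD, n = 4 each). The other 6 members of the dendritic cell list were under 1 RPKM, among them Clec9a at 0.397 ± 0.0982 RPKM, Xcr1 at 0.0146 ± 0.0133 RPKM, Siglech at 0.266 ± 0.0891 RPKM and Zbtb46 at 0.0795 ± 0.0397 RPKM (SD, n = 4 each).

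Immunoglobulin segments were frequent among the largest ratios between libraries. In the annotation 264 segments are intact genes, and 178 of them had a mean of at least 1 RPKM. Of these 128 varied, 71.9%, against 4.74% of 8476 protein-coding genes. Among the 12 genes with the largest ratios of highest to lowest library, intact segments numbered 3 and pseudogene segments a further 5. Ighv3-2 had 41.1, 0.215, 39.0 and 15.7 RPKM and Ighv4-2 30.5, 0.104, 31.8 and 13.2 RPKM, so both were low in S80 alone. Ighv1-33 had 12.6, 0, 19.9 and 35.4 RPKM and Ighv5-16 0, 6.92, 0 and 10.3 RPKM. Ighv1-14, Ighv6-7, Ighv1-76 and Ighv1-41 completed the segments among the 12, and they differed in which library was highest: S86, S74, S80 and S80. Variable segments are similar in sequence, and short reads may be assigned to more than the segment of origin. The largest ratio of all belonged to Gm16867, a protein-coding gene model with 7.77 RPKM in S80, 0.00513 RPKM in S86 and 0 in S74 and S92, at least 505 times higher in S80 when the lowest library is set to 3 reads. Gm45234, Gm26669 and Gm7334 were the other 3 of the 12. Gm45234 had 2.73, 1.65, 0.687 and 0.00973 RPKM, Gm26669 1.41, 2.68, 0 and 1.27 RPKM and Gm7334, a processed pseudogene, 0, 0, 1.74 and 3.06 RPKM.

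Basophil and mast cell markers were rare and highest in S92. Mcpt8, a basophil protease, had 2.78, 1.49, 1.96 and 11.8 RPKM and Prss34 5.37, 2.22, 2.07 and 12.2 RPKM. Of 8 tested members 7 varied, where 6.55% of all genes did, and 6 of them were highest in S92, the highest library for 15.9% of all genes, Fcer1a, the IgE receptor chain, with 5.48 RPKM among them. Il4 itself, a cytokine that basophils make, had 1.12, 1.53, 0.716 and 1.21 RPKM, and S92 was not its highest library.

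Monocyte and macrophage markers were mixed. Ly6c2, which neutrophils also express, averaged 200 ± 19.8 RPKM and Csf1r, the M-CSF receptor, had 27.8, 24.2, 39.2 and 26.7 RPKM. Adgre1, which encodes F4/80 and is found on eosinophils too, had 24.7, 19.9, 44.4 and 26.9 RPKM. Ccr2, of inflammatory monocytes, averaged 2.11 ± 0.474 RPKM and Cx3cr1 0.982 ± 0.244 RPKM, and the complement genes C1qa, C1qb and C1qc of tissue macrophages averaged 0.520 ± 0.242, 0.634 ± 0.474 and 0.304 ± 0.255 RPKM (SD, n = 4 each). Vcam1 averaged 12.2 ± 2.94 RPKM (SD, n = 4), well above those complement genes. T and NK cell markers summed to 24.2 to 38.7 RPKM over 14 genes, with Il7r, shared with developing B cells, at 8.82, 13.9, 6.85 and 8.82 RPKM, and Cd3d at 4.25 ± 0.380 RPKM (SD, n = 4). Of the platelet markers Pf4 averaged 1.37 ± 0.834 RPKM and Ppbp 0.159 ± 0.0864 RPKM (SD, n = 4 each), whereas Itgb3, an integrin chain that is not restricted to platelets, had 20.2, 16.4, 10.8 and 16.003 RPKM. Stromal and endothelial markers summed to 0.726 to 1.20 RPKM over 10 genes, and none reached a mean of 1 RPKM.

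**Figure D5:**
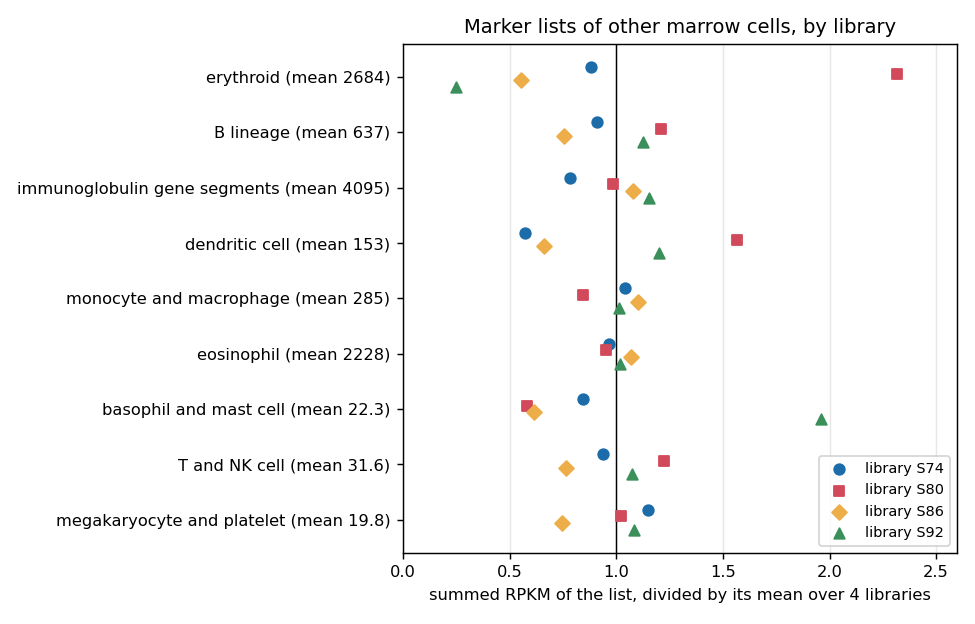
Summed RPKM of marker lists of other marrow cells in each of the 4 untreated libraries, divided by the mean of the list over the 4 libraries, which is given beside its name. The erythroid list is furthest from its mean in S80, the basophil and mast cell list in S92, and the eosinophil list stays close to its mean in each library.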

How the data were processed

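The authors trimmed the reads, mapped them to GRCm38 with CLC Genomics Workbench and deposited RPKM for each gene. Base calls were converted with bcl2fastq 2.17.1.4, per the labels. Whether strand was used in counting: not given in the sources used here. RPKM values are whole multiples of what 1 read is worth, so reads and library totals were recovered from them: 12657 genes came out whole at the annotated length within a tolerance of 0.0001 reads, and 5639 with a fitted length that gave whole reads (within 5% of the annotated length, otherwise the shortest). Coordinates and lengths are those of GENCODE on GRCm38. The depth was 21912630 to 26619260 mapped reads. Intervals and floors cover counting error only.

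Only the 4 untreated libraries were used. Levels are means with the SD over libraries. Logarithms used a pseudocount of 0.1. Differences between libraries were tested with a chi-square test on recovered reads over the 9194 genes with a mean of at least 1 RPKM and adjusted by Benjamini-Hochberg, and receptor pairs with an exact sign-flip permutation test. The chi-square step was tested on simulated data. Python 3.11.15, numpy 2.4.6, pandas 2.3.3, scipy 1.17.1 and matplotlib 3.10.9 were used.

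Named were the 30 genes with the highest mean, the 4 highest members of each list with members at or near 0, all receptor chains, the readout genes and the 12 largest ratios between libraries. Members and lists were chosen with earlier results of these data known, and other genes, such as Cxcl2, Cd14, Tnfaip3, Icam1, Ccrl2, Wfdc17 and Itgam_1, were named after their values were seen. Alternatives were other thresholds, scalings and pseudocounts, ranking by reads, and leaving out each library. Some list members are not reported here by name.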

Additional observations from a re-analysis of the deposited data

Results flagged for a closer look

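For each gene named and each list sum, 263 values in all, the 4 libraries were searched for 1 that stood far from the other 3, and 22 values had one. Chance gives about 1 in 20, but the values include genes named for their spread between libraries, so the count cannot be read against that rate.

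S86 stood apart above the other libraries for Cd14 (50.6 RPKM), Birc3 (36.9 RPKM), Vcam1 (16.6 RPKM), Il10 (0.457 RPKM) and the summed stromal and endothelial markers (1.20 RPKM). It was also the 1 library with a value above 0 for Bpi (0.0415 RPKM), Il12b (0.0203 RPKM) and Fam19a3 (0.00891 RPKM).

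S74 stood apart above the others for Ncf1, at 591 RPKM against 533 to 542 RPKM. The same held for Ifitm3 (250.3 RPKM), Wfdc17 (29.1 RPKM), Ighv6-7 (11.2 RPKM), Ifit3 (5.41 RPKM) and the summed type I interferon stimulated genes (1041 RPKM). S74 alone had a value above 0 for Serpina3n (0.0663 RPKM). It stood apart below the others for Tlr4 (7.84 RPKM).

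S80 stood above the others for Cxcr4 (249.9 RPKM, against 222 to 226 RPKM), Gm16867 (7.77 RPKM) and Arg1 (0.0509 RPKM). S92 stood above for Il17ra (81.2 RPKM, against 76.2 to 76.3 RPKM) and Mcpt8 (11.8 RPKM) and below for Ear6 (118 RPKM).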

How the results depend on the processing

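The 10 leading genes held 12.6% when ranked and summed as reads, against 36.2% as RPKM, and the 3 granule lists 7.86% against 11.9%, since both alternatives weight genes by length. Of the 30 leading genes, 17 were shared with the ranking by reads. The 602 genes that varied became 1455 with a minimum mean of 0.1 RPKM and 6004 with no minimum ratio, and ranged from 395 to 523 with 1 library left out. Scaling by the median of ratios gave 560, of which 555 were shared. Leaving out immunoglobulin and T-cell receptor segments, chosen after seeing the data, gave 472. The other 37 alternative values of the main results, and 273 of 300 for single genes and lists, moved by less than the spread between libraries or, for counts, by less than 1.5 times, and none changed direction. No pairing with treated libraries was made because 1 group alone was described, and receptor chains were paired within a library. With 4 libraries no exact two-sided test can go below p = 0.13, and genes under about 0.1 RPKM rest on few reads.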
